A study of Homo sapiens with 6 samples.

Results

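The effect of 17β-estradiol (E2) on gene expression was read in 3 lines of Ishikawa cells, an established human endometrial adenocarcinoma line, as the difference between the E2 and the vehicle library of the same line. All 6 libraries of the series belong to this comparison: 3 received 10 nM E2 and 3 received the vehicle, 0.1% DMSO. The lines were the parental Ishikawa line, wild type at ETV4, and 2 knockout lines of the ETS transcription factor gene ETV4, clone 1 and clone 2, each a single clone. All lines had spent 5 days in hormone-depleted medium before treatment. The labels give the treatment time as 8 h in the protocol and as 1 h in the sample characteristics, so the time is uncertain. Each line gave 1 library per treatment, so the spread behind every test is the spread of the E2 change between lines. The sources do not say that the libraries came from separate cultures beyond the lines themselves.

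E2 enters the cell and binds the estrogen receptor, a transcription factor encoded in these cells mainly by ESR1. The bound receptor sits on estrogen response elements, often far from the genes it controls, and recruits coactivators or corepressors. In the endometrial epithelium estrogen is known to drive proliferation and to induce the progesterone receptor, which then mediates the opposing hormone signal. Ishikawa cells are used as an epithelial model of this response, and their alkaline phosphatase activity is a classical readout of estrogen action.

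The libraries held 28037392 to 36829479 counts, and 17755 to 18658 genes had at least 1 count. After a filter on low counts 15611 of 26364 genes were tested. Levels are given as CPM, which are counts divided by the TMM-scaled library size. They are not corrected for gene length and are compared only between libraries. Changes are log2 ratios of E2 to DMSO from the model with line as a block, so that a change of 1 is a doubling. The targeted gene, ETV4, stood at 3.41 and 2.42 CPM in the clones in DMSO and at 19.7 CPM in the parental line, and at 2.95, 2.77 and 28.4 CPM in E2. The epithelial marker list summed to 2946 to 4042 CPM, and its 14 genes were all detected. Stromal, immune and endothelial lists summed to at most 88.8, 8.39 and 6.30 CPM. The smooth muscle list summed to 122.5 to 188 CPM. In bulk RNA fewer cells of a kind and less RNA per cell cannot be told apart.

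E2 changed 384 of 15611 genes (2.46%) at an adjusted p below 0.05 in the quasi-likelihood test of edgeR, Benjamini-Hochberg adjusted. Of these, 268 were higher in E2 (1.72% of the genes tested) and 116 lower (0.743%). Every called gene had the same sign in all 3 lines, and 260 of the 268 and 109 of the 116 changed at least 1.5-fold in each line. Without regard to the test, 681 genes (4.36%) were up by 1.5-fold or more in every line, and 289 (1.85%) were down as far. Fits on only 2 lines called 568 higher and 177 lower without clone 1, 1972 and 1381 without clone 2, and 1271 and 956 without the parental line. The raised genes changed more: their median change was 1.30 in clone 1, 1.42 in clone 2 and 1.76 in the parental line, against -0.92, -1.08 and -1.21 for the lowered genes. The parental line had the largest change for 166 of the 268 raised genes and 54 of the 116 lowered genes. In 252 of the 268 every E2 library lay above every DMSO library (13.5% of all genes tested did), and in 88 of the 116 every E2 library lay below (10.7%).

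**Figure D1:**
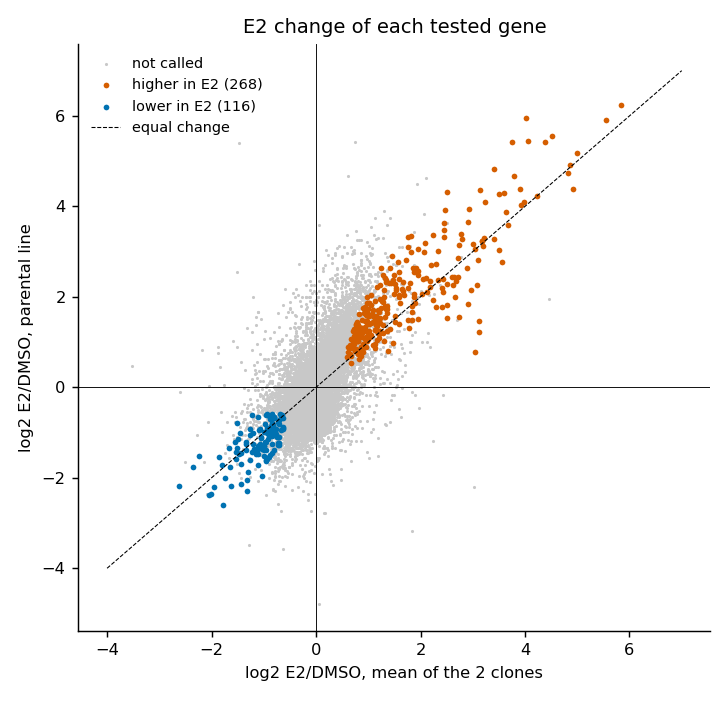
Each point is 1 tested gene, with the mean log2 E2/DMSO ratio of the 2 knockout clones on the horizontal axis and that of the parental line on the vertical axis. The 268 raised genes lie in the upper right, many above the dashed line of equal change, and the 116 lowered genes lie in the lower left.

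Called genes differed in GC content by direction, and the relation over all genes differed between lines, with almost none in clone 2. The called raised genes had a median transcript GC content of 56.91%, the lowered genes 47.56% and all genes 48.57%. Across 14607 genes, which share the libraries and are not replicates, the Spearman correlation of the change with GC content was 0.132 in clone 1, -0.00922 in clone 2 and 0.336 in the parental line. With a correction for GC content and length 881 genes were higher and 657 lower, so that 57.3% of calls were higher in place of 69.8%. These included 263 of the 268 raised and all 116 lowered genes.

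Genes known as estrogen-induced in other cells, mostly breast cancer cells, formed a list of 33 tested members. Of these 13 rose (39.4%, against 1.72% of all genes). None fell, 0 also by limma-voom and DESeq2, with 1 lower at an unadjusted p under 0.05. In all 3 lines 26 were higher (78.8%, against 27.8% of all genes). PGR stood at 7.31, 2.66 and 1.61 CPM in DMSO and at 71.5, 62.7 and 34.8 CPM in E2, in the order clone 1, clone 2 and parental, which is used throughout. This gene for the progesterone receptor was lowest in the parental line under both treatments, and its groups did not overlap. GREB1 stood at 8.26, 9.83 and 5.14 CPM in DMSO and at 60, 66.2 and 50.1 CPM in E2. GREB1, a cofactor of the estrogen receptor, was more even between the lines, with every E2 library above every DMSO library. CA12 stood at 5.75, 4.54 and 3.03 CPM in DMSO and at 33.2, 35.6 and 27.5 CPM in E2. CA12 encodes a carbonic anhydrase of the cell surface, and its 3 E2 levels lay close together. The changes were 4.03 (SE 0.28) for PGR, 2.96 (SE 0.15) for GREB1 and 2.88 (SE 0.17) for CA12. The transcription factor EGR3 rose by 2.83 (SE 0.20), the ceramide enzyme DEGS2 by 2.06 (SE 0.13) and IGFBP4, which binds insulin-like growth factors, by 2.48 (SE 0.41). IL17RB was the smallest of the 13 at 0.72 (SE 0.13). The 13 adjusted p-values ran from 0.00222 to 0.0495 in the quasi-likelihood test of edgeR, Benjamini-Hochberg adjusted.

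Among genes known as estrogen-repressed, 4 of 20 tested members were called lower (20%, against 0.743% of all genes). None was called higher, 0 also by limma-voom and DESeq2, with 1 higher at an unadjusted p under 0.05. CYP1A1 stood at 7.09, 6.08 and 5.68 CPM in DMSO and at 1.1, 0.922 and 1.2 CPM in E2. This cytochrome P450, the classical target of the aryl hydrocarbon receptor, was low in every E2 library, at nearly the same level. BMF stood at 43.2, 44.9 and 19.4 CPM in DMSO and at 15.3, 7.24 and 3.69 CPM in E2. BMF, a death-promoting member of the BCL2 family, fell in each line and least in clone 1. PIK3IP1, an inhibitor of PI3-kinase, fell by 1.14 (SE 0.20) and TXNIP, which inhibits thioredoxin and glucose uptake, by 0.92 (SE 0.13) on the log2 scale. Adjusted p-values ran from 0.00501 to 0.0495 in the quasi-likelihood test of edgeR, Benjamini-Hochberg adjusted.

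**Figure D2:**
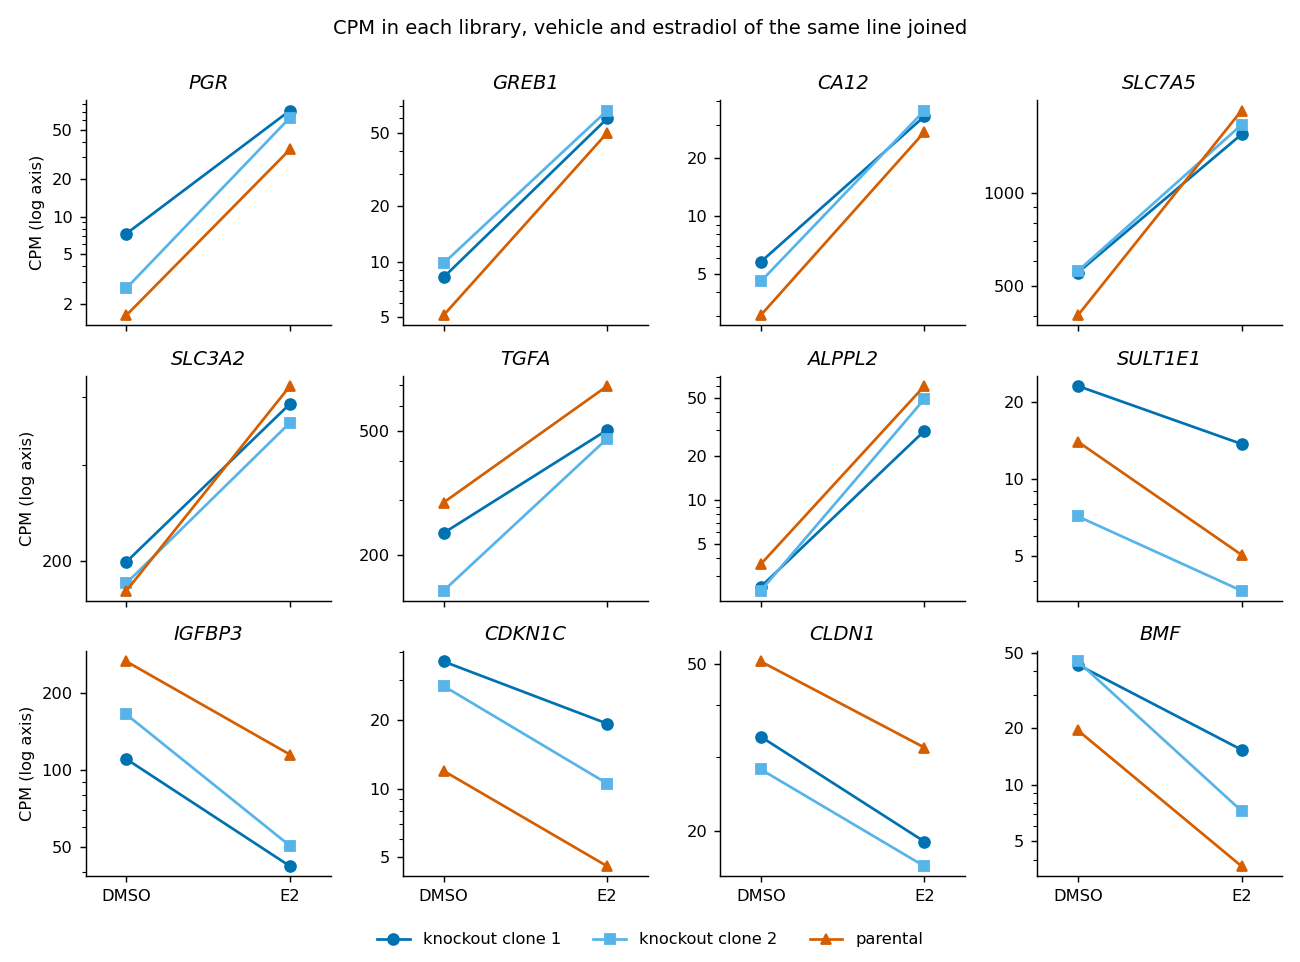
CPM of 12 genes in the 6 libraries, each panel with its own log axis and with the DMSO and E2 library of 1 line joined. PGR, GREB1, CA12, SLC7A5, SLC3A2, TGFA and ALPPL2 climb in all 3 lines, and SULT1E1, IGFBP3, CDKN1C, CLDN1 and BMF descend in all 3.

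Among receptors, pioneer factors and coregulators, 4 of 32 tested members rose and 2 fell (12.5% and 6.25%, against 1.72% and 0.743% of all genes). Beside PGR, these were coregulators: PPARGC1B, a coactivator, rose by 1.73 (SE 0.21), the corepressor NRIP1 by 1.12 (SE 0.13) and the LIM-domain protein FHL2 by 0.76 (SE 0.13). The CBP and p300 partner CITED2 fell by 0.86 (SE 0.13). NRIP1 stood at 61.1, 50.5 and 43.6 CPM in DMSO and at 120, 129 and 89.9 CPM in E2. Its groups did not overlap, with the lowest levels in the parental line. ESR1 had a change of -0.51 (SE 0.13) with a lower E2 level in every line, at 276, 246 and 199 CPM in DMSO and 203, 149 and 154 CPM in E2. It did not pass the test (adjusted p 0.0966 in the quasi-likelihood test of edgeR, Benjamini-Hochberg adjusted). Adjusted p-values of the called genes named here ran from 0.00375 to 0.0495 in the quasi-likelihood test of edgeR, Benjamini-Hochberg adjusted.

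The brush border, the microvillus-covered apical surface of absorptive epithelia, was represented by 31 tested genes, of which 6 rose and none fell (0 lower by limma-voom and DESeq2, 3 lower at an unadjusted p under 0.05). The raised share was 19.35%, against 1.72% of all genes. Of the 6, 4 were ectoenzymes, which face the lumen, and 2 were scaffolds or cytoskeletal proteins beneath the membrane. With the GC and length correction 6 were called higher and 4 lower. In all 3 lines 9 of the 31 were higher (29.03%, against 27.8% of all genes) and 8 lower (25.81%, against 25.2%). The list as a whole was thus close to all genes by this measure. Of 14 tested ectoenzymes 6 were higher and 1 lower in all 3 lines, with a median change of 0.4065. Of 17 scaffold and cytoskeletal genes 3 were higher and 7 lower, with a median change of -0.2652. The 3 alkaline phosphatase genes ALPI (intestinal), ALPP (placental) and ALPPL2 (germ cell) lie in 1 run of neighbouring genes on chromosome 2 and all rose. The 250 bases before their RefSeq start sites are shown because these paralogs share much of this sequence, at chr2:232455903-232456152, chr2:232378501-232378750 and chr2:232406594-232406843 on the plus strand of GRCh38.p14, the build of the RefSeq table and not that of the deposited counts. Capitals mark GGTCA, the core of the estrogen response element and of binding sites of other nuclear receptors.

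ALPI: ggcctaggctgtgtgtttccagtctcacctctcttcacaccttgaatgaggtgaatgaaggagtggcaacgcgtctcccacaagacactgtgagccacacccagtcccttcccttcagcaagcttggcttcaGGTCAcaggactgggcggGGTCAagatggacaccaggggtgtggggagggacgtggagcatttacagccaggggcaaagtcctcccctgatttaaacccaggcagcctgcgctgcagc
ALPP: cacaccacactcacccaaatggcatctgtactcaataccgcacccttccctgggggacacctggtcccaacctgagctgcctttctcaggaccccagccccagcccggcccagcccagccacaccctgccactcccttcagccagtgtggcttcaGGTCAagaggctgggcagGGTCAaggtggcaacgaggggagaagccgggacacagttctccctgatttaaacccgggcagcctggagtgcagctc
ALPPL2: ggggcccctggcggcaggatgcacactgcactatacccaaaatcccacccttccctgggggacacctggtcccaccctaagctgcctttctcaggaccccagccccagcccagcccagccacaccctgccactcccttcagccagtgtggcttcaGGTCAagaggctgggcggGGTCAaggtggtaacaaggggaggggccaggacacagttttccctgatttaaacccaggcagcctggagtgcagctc

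Each of the 3 stretches holds GGTCA at 2 places. The pair starts 118 and 100 bases before the start site in ALPI and 95 and 77 bases before it in ALPP and ALPPL2. Aligned bases were identical at 88.5% of positions between ALPP and ALPPL2, 71.5% between ALPI and ALPP and 72.1% between ALPI and ALPPL2. The same letters were searched for in all genes. GGTCA or its other strand TGACC stood in this window in 45 of 170 raised genes with a RefSeq promoter (26.5%), in 24 of 89 lowered genes (27%) and in 3641 of 11979 tested genes (30.4%). The full palindrome GGTCANNNTGACC was in 0 of the 170, 0 of the 89 and 1 of the 11979. A match is a description of these letters only.

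ALPPL2 stood at 2.54, 2.39 and 3.63 CPM in DMSO and at 29.8, 49.2 and 60.4 CPM in E2. ALPPL2 was thus already detected in DMSO, and its E2 level was highest in the parental line. ALPI stood at 0.167, 0.137 and 0.0672 CPM in DMSO and at 7.13, 21.1 and 9.73 CPM in E2. ALPP stood at 0.251, 0.171 and 0.202 CPM in DMSO and at 7.54, 21.1 and 15.7 CPM in E2. Both lay near the limit of detection in DMSO, with 2 to 9 counts per library, and both E2 levels were highest in clone 2. Changes were 3.98 (SE 0.19), 6.51 (SE 0.35) and 6.0 (SE 0.35). The exact share of reads between these close paralogs is uncertain. ANPEP stood at 0.251, 0.478 and 0.168 CPM in DMSO and at 9.32, 16.5 and 4.78 CPM in E2. ANPEP encodes aminopeptidase N, another ectoenzyme, and its change was 5.07 (SE 0.21). ESPN stood at 436, 442 and 278 CPM in DMSO and at 978, 1125 and 1036 CPM in E2. ESPN encodes espin, which bundles actin in microvilli, and shares sequence with its pseudogene ESPNP. It rose by 1.47 (SE 0.18), and the PDZ scaffold SLC9A3R1 (NHERF1) by 0.89 (SE 0.13). Adjusted p-values of the 6 ran from 0.00139 to 0.028 in the quasi-likelihood test of edgeR, Benjamini-Hochberg adjusted.

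**Figure D3:**
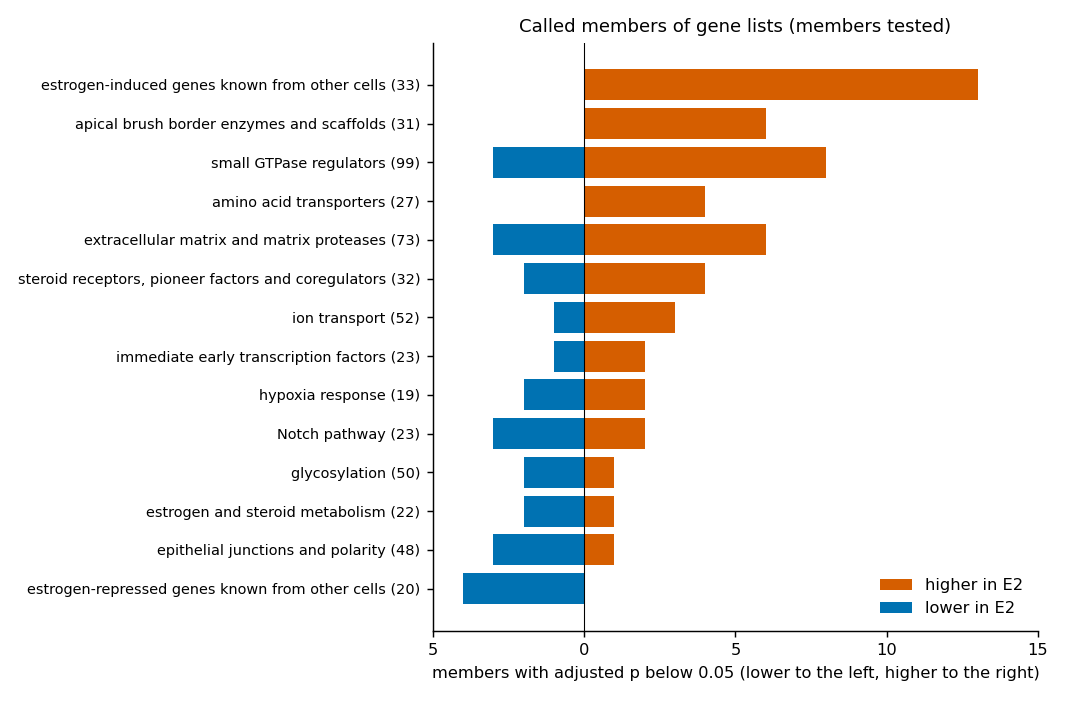
Bars count the members of each gene list that passed the test, with genes higher in E2 to the right and lower to the left, for the 14 lists with at least 3 called members. The number of members tested stands in brackets, and estrogen-induced genes lead with 13 of 33.

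The alkaline phosphatase genes were not the only neighbours to rise together. Of 260 raised genes that could be placed in RefSeq gene order, 78 (30%) had another raised gene directly beside them among tested genes, against 2.74% of genes that were not raised. For lowered genes the count was 2 of 116 (1.72%), against 1.51% of genes that were not lowered. The contrast depended on the calls used. With DESeq2 calls the shares were 30.6% against 10.3% for raised genes and 14.1% against 5.24% for lowered genes. For 8 of the 78 the called neighbour only overlapped the gene, and 70 had a called neighbour that did not overlap. A run joins called genes that lie beside each other or are parted by at most 2 tested genes. There were 36 runs of at least 2 raised genes and 11 of at least 3, which held 51 genes, against 2 and 0 for lowered genes. Genes that were not called but lay beside a raised gene had a median change of 0.11 and were higher in all 3 lines in 40.1% of 411 cases, against 26.5% of 14248 genes beside no called gene. The use of strand in counting is not given, so overlapping and antisense partners cannot be separated.

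The longest run, on chromosome 2, had 9 raised genes with no other tested gene between them: NPPC, DIS3L2, ALPP, ECEL1P2, ALPPL2, ALPI, ECEL1, PRSS56 and CHRND. NPPC stood at 1, 0.751 and 0.538 CPM in DMSO and at 11.8, 18.1 and 10.2 CPM in E2. NPPC encodes C-type natriuretic peptide. CHRND stood at 0.391, 0.205 and 0.168 CPM in DMSO and at 4.32, 4.24 and 3.34 CPM in E2. CHRND, the delta subunit of the muscle acetylcholine receptor, was below 1 CPM in DMSO and similar in the 3 lines in E2. DIS3L2 stood at 21.7, 29.1 and 17.5 CPM in DMSO and at 41.5, 47.3 and 38.2 CPM in E2. The exonuclease gene DIS3L2 changed least of the run, by 0.92 (SE 0.13), against 4.09 (SE 0.24) for NPPC and 3.94 (SE 0.28) for CHRND. ECEL1P2 and PRSS56 had at most 1 and 4 counts in any DMSO library. Adjusted p-values of the 9 ran from 0.00222 to 0.0475 in the quasi-likelihood test of edgeR, Benjamini-Hochberg adjusted.

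A second run, on chromosome 17, had 7 raised genes among 9 tested: SLC16A3, SECTM1, UTS2R, OGFOD3, HEXDC, C17orf62 and NARF. SLC16A3 stood at 45.3, 26.9 and 48.3 CPM in DMSO and at 130, 121 and 153 CPM in E2. SLC16A3 encodes the lactate exporter MCT4, and its E2 libraries all lay above its DMSO libraries. HEXDC stood at 10.8, 11.9 and 8.24 CPM in DMSO and at 34.6, 51.6 and 30.1 CPM in E2. HEXDC, a hexosaminidase gene, was likewise higher in every E2 library. Changes in this run went from 0.86 (SE 0.12) for OGFOD3 to 3.84 (SE 0.31) for SECTM1, and CSNK1D between them had 0.31 (SE 0.12) and did not pass. On chromosome 11 the inwardly rectifying potassium channel genes KCNJ1 and KCNJ5 rose by 3.65 (SE 0.29) and 2.12 (SE 0.15), with C11orf45 and TP53AIP1 beside them. On chromosome 1 HES2, ESPN, TNFRSF25 and PLEKHG5 rose by 1.47 to 1.97. On chromosome 19 NRTN, a ligand of the GDNF family, rose by 1.51 (SE 0.14), together with the fucosyltransferase paralogs FUT3 and FUT5. On chromosome 12 IQSEC3, SLC6A12 and SLC6A13 rose by 4.98 (SE 0.17), 2.98 (SE 0.21) and 1.96 (SE 0.21). Pairs included PGR with the calcium channel gene TRPC6, FGF19 with ANO1, the lipid droplet genes PLIN4 and PLIN5, MLPH with RAB17 and RASGRP1 with THBS1.

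**Figure D4:**
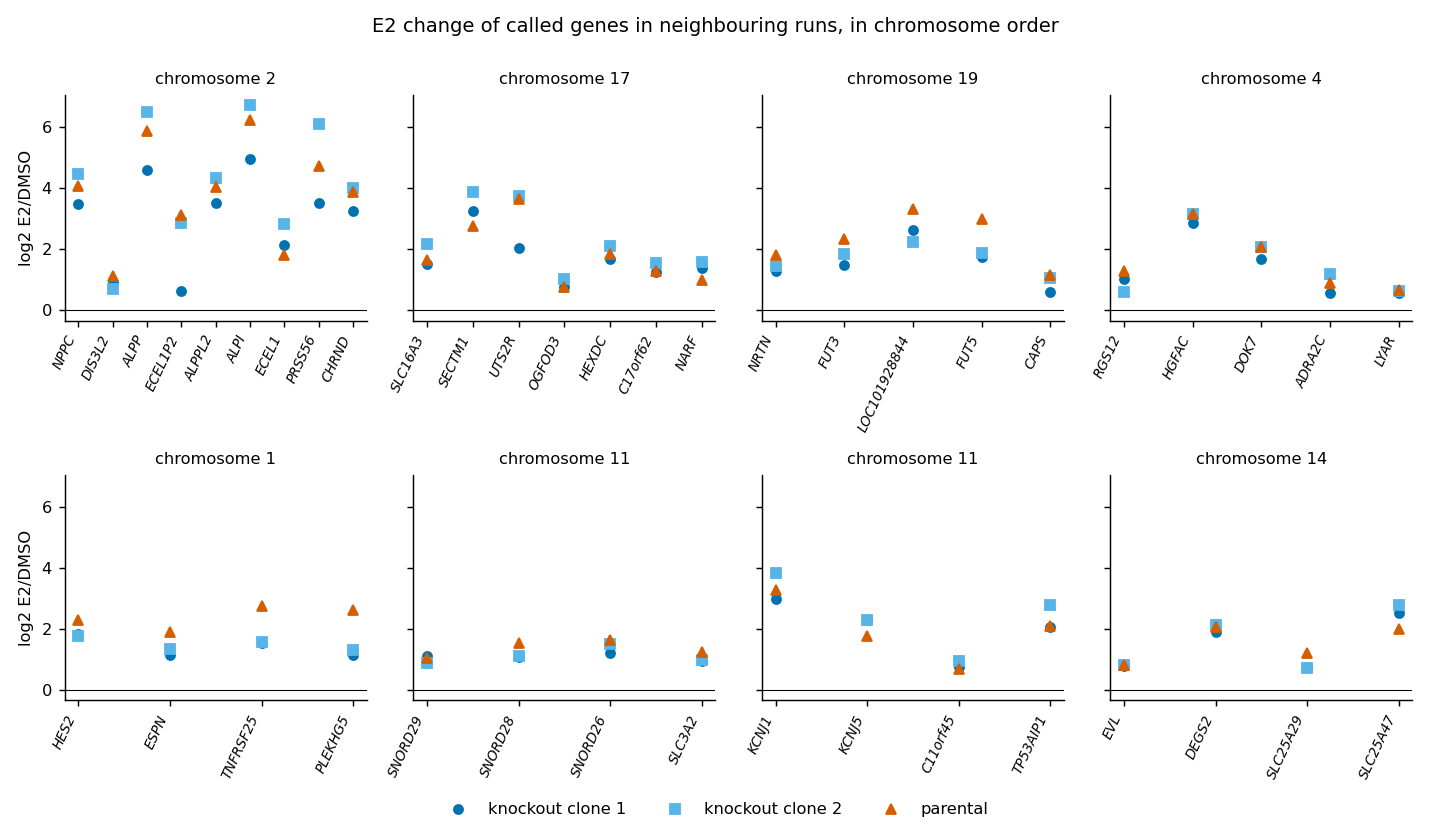
Log2 E2/DMSO ratios in the 3 lines for called genes of the 8 runs with at least 4 called genes, in chromosome order and equally spaced. All points lie above 0, and the changes within a run differ widely, from 0.92 for DIS3L2 to 6.51 for ALPI in the fit for the run on chromosome 2.

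Transporters of amino acids and ion channels were among the raised genes. Of 27 tested amino acid transporters 4 rose (14.8%, against 1.72% of all genes). None fell, 0 also by limma-voom and DESeq2, with 1 lower at an unadjusted p under 0.05. SLC7A5 stood at 552, 559 and 402 CPM in DMSO and at 1550, 1664 and 1851 CPM in E2. SLC3A2 stood at 199, 182 and 176 CPM in DMSO and at 388, 358 and 418 CPM in E2. These genes encode the light and heavy chains of the exchanger of large neutral amino acids, and both chains were above all DMSO libraries in every E2 library. SLC6A6 stood at 44.4, 53.1 and 37.3 CPM in DMSO and at 303, 306 and 202 CPM in E2. SLC6A6 carries taurine and changed by 2.58 (SE 0.13), against 1.75 (SE 0.19) for SLC7A5, 1.06 (SE 0.13) for SLC3A2 and 2.61 (SE 0.24) for the cationic amino acid carrier SLC7A2. Their adjusted p-values lay from 0.00222 to 0.019 in the quasi-likelihood test of edgeR, Benjamini-Hochberg adjusted. SNORD29, SNORD28 and SNORD26, small nucleolar RNAs inside the host gene SNHG1 next to SLC3A2, also rose, by 1.03, 1.29 and 1.5. Over all 235 tested solute carriers 12 rose and 4 fell (5.11% and 1.70%, against 1.72% and 0.743% of all genes). Those that fell included the urea carrier SLC14A2 at -1.31 (SE 0.16), the anion exchanger SLC26A7 at -1.14 (SE 0.14) and SLC6A20 at -0.95 (SE 0.13).

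Of 52 tested potassium channel genes 5 rose and 2 fell (9.62% and 3.85%, against 1.72% and 0.743% of all genes). In every line 12 were up and 4 down by 1.5-fold or more, at background shares of 4.36% and 1.85%. KCNJ5 stood at 7.37, 10.6 and 21.9 CPM in DMSO and at 36.3, 52.1 and 74.7 CPM in E2. KCNJ5, a G-protein-gated channel, started from a higher level in the parental line and did not overlap between groups. KCNK15 rose by 2.37 (SE 0.31) and KCNF1 by 1.82 (SE 0.20), while KCNC2 fell by 1.35 (SE 0.23) and KCNJ3 by 0.75 (SE 0.12). ANO1 stood at 61.1, 53.3 and 12.8 CPM in DMSO and at 399, 474 and 198 CPM in E2. ANO1, a calcium-activated chloride channel, rose by 3.26 (SE 0.26), and the T-type calcium channel CACNA1I by 4.56 (SE 0.38). Among 8 tested carbonic anhydrases the surface enzyme CA12 and the cytosolic CA2 rose, the latter by 1.72 (SE 0.15). They made 25% of the family, against 1.72% of all genes. Adjusted p-values of the channel genes named here ran from 0.00375 to 0.0463 in the quasi-likelihood test of edgeR, Benjamini-Hochberg adjusted.

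Regulators of small GTPases, the switches of traffic, adhesion and mitogen signalling, had 8 of 99 tested members higher and 3 lower. These were 8.08% and 3.03%, against 1.72% and 0.743% of all genes. The list includes 38 small GTPases, of which 2 rose and 2 fell (5.26% each). Exchange factors, which turn the switch on, gave 5 of the 8 among 36 tested, with 1 lower (13.9% and 2.78%). IQSEC3 stood at 0.809, 0.717 and 0.538 CPM in DMSO and at 22, 25.8 and 18.2 CPM in E2. IQSEC3, an exchange factor for ARF GTPases, was below 1 CPM in every DMSO library and close to even between lines in E2. RAPGEFL1 stood at 9.16, 15.2 and 7.03 CPM in DMSO and at 30.4, 60.1 and 44.3 CPM in E2. RAPGEFL1, related to RAP exchange factors, rose by 2.12 (SE 0.20), the exchange factor PLEKHG5 by 1.68 (SE 0.30) and the RAS exchange factor RASGRP1 by 1.35 (SE 0.20). The GTPase-activating protein ARHGAP26 rose by 1.04 (SE 0.12). The secretory GTPase RAB27B fell by 1.17 (SE 0.17), RRAS by 0.82 (SE 0.13) and ARHGEF3 by 0.72 (SE 0.12). Melanophilin (MLPH), an effector of RAB27 proteins, rose by 3.79 (SE 0.19). The adjusted p-values of these genes went from 0.00139 to 0.0495 in the quasi-likelihood test of edgeR, Benjamini-Hochberg adjusted.

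Genes of the extracellular matrix and its proteases were counted separately. Of 40 tested matrix genes 3 rose (7.5%, against 1.72% of all genes) and none fell (0 also by limma-voom and DESeq2, with 2 lower at an unadjusted p under 0.05). In all 3 lines 12 were higher and 2 lower, but 10 and 12 with the GC and length correction. Of 33 proteases and inhibitors 3 rose and 3 fell (9.09% each, against 1.72% and 0.743% of all genes). Over the 73 genes of both kinds the corrected fit called 10 higher and 10 lower. THBS1 stood at 21.1, 26.8 and 22.4 CPM in DMSO and at 215, 511 and 572 CPM in E2. THBS1, the matricellular protein thrombospondin 1, rose by 4.10 (SE 0.29) and least in clone 1. MMP17 stood at 5.08, 6.35 and 2.25 CPM in DMSO and at 79, 114 and 100 CPM in E2. MMP17, a membrane-anchored metalloproteinase, rose by 4.48 (SE 0.31). The proteoglycan VCAN rose by 2.58 (SE 0.29) and ADAMTS9, a protease that cleaves it, by 3.18 (SE 0.29). The 3 lowered genes were all serine proteases: PRSS23 at -0.94 (SE 0.11), PRSS8 at -0.84 (SE 0.11) and TMPRSS4 at -0.72 (SE 0.12). Of 31 tested collagens, COL15A1 was called, at 2.19 (SE 0.31), a share of 3.23%, against 1.72% of all genes. In every line 6 were up by 1.5-fold or more, at a background share of 4.36%. For these genes the adjusted p ran from 0.00375 to 0.0419 in the quasi-likelihood test of edgeR, Benjamini-Hochberg adjusted.

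Of 48 tested genes of epithelial junctions and polarity 3 fell (6.25%, against 0.743% of all genes), all claudins. The epithelial ETS factor EHF was the 1 called higher (2.08%, against 1.72%) and rose by 1.18 (SE 0.14). CLDN1 stood at 33.6, 28 and 50.7 CPM in DMSO and at 18.9, 16.5 and 31.6 CPM in E2. CLDN1 seals the tight junction; it fell in each line, by 0.76 (SE 0.11), and the groups overlapped, with the highest levels in the parental line under both treatments. CLDN9 fell by 1.85 (SE 0.21) and CLDN16 by 1.31 (SE 0.22). Thus 3 of 15 tested claudins were called lower (20%, against 0.743% of all genes). In all 3 lines 6 were lower (40%, against 25.2% of all genes) and 4 higher (26.7%, near the 27.8% of all genes). Among 22 integrins ITGB6 fell by 1.31 (SE 0.16) and ITGB3 by 1.26 (SE 0.22), a share of 9.09%, against 0.743% of all genes. In edgeR's test and limma-voom 0 rose, with 1 higher by DESeq2 and at an unadjusted p under 0.05. The secreted semaphorins SEMA3C and SEMA3D fell by 1.07 (SE 0.12) and 0.97 (SE 0.16). Adjusted p-values ran from 0.0156 to 0.0463 in the quasi-likelihood test of edgeR, Benjamini-Hochberg adjusted.

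Called enzymes that clear steroids and retinoids changed in both directions. Of 22 tested genes of estrogen and steroid metabolism 1 rose and 2 fell (4.55% and 9.09%, against 1.72% and 0.743% of all genes). In all 3 lines 14 were lower (63.6%, against 25.2% of all genes) and 3 higher (13.6%, against 27.8%). Of 13 tested retinoid enzymes 1 was called higher (7.69%, against 1.72% of all genes), and 4 were higher and 1 lower in all 3 lines. SULT1E1 stood at 23.1, 7.14 and 14 CPM in DMSO and at 13.7, 3.66 and 5.05 CPM in E2. SULT1E1 inactivates estrogen by sulfation; it fell within each line by 1.06 (SE 0.18), and the groups overlapped, with clone 1 highest and clone 2 lowest under both treatments. AKR1C2, a ketosteroid reductase, fell by 1.13 (SE 0.16), and its paralogs AKR1C1 and AKR1C3 were at least 1.5-fold lower in each line without a call. HSD11B2 stood at 3.35, 1.64 and 1.58 CPM in DMSO and at 10.2, 8.44 and 9.17 CPM in E2. HSD11B2, which inactivates cortisol, rose by 2.14 (SE 0.23). DHRS3 stood at 3.43, 1.47 and 1.28 CPM in DMSO and at 69.8, 78.2 and 48.6 CPM in E2. DHRS3 reduces retinal to retinol and rose by 5.04 (SE 0.29). Their adjusted p-values lay from 0.00271 to 0.0452 in the quasi-likelihood test of edgeR, Benjamini-Hochberg adjusted.

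Few growth factor and cell cycle genes were called. TGFA stood at 235, 154 and 294 CPM in DMSO and at 503, 472 and 695 CPM in E2. TGFA, a ligand of the EGF receptor, rose by 1.32 (SE 0.15) without overlap. IGFBP3 stood at 111, 165 and 266 CPM in DMSO and at 42.3, 50.7 and 115 CPM in E2. IGFBP3, the main carrier of insulin-like growth factors in blood, fell by 1.43 (SE 0.14) in the same direction in each line, although the parental E2 level was above the clone 1 level in DMSO. Of 6 tested members of the IGF binding protein family 1 was called higher and 1 lower. In all 3 lines 5 of the 6 were lower (83.3%, against 25.2% of all genes) and 1 higher. The receptor FGFR2 fell by 1.30 (SE 0.14). CDKN1C stood at 36.3, 28.3 and 12 CPM in DMSO and at 19.4, 10.6 and 4.57 CPM in E2. CDKN1C, the CDK inhibitor p57, fell by 1.23 (SE 0.15) with overlap between the groups, the parental line being lowest under both treatments. It was the 1 called of 7 CDK inhibitors (14.3%, against 0.743% of all genes). Of the 7, 6 were lower in all 3 lines, or 5 with the GC and length correction, against 25.2% of all genes. Cyclin D2 (CCND2) rose by 1.30 (SE 0.14). The stress genes DDIT4, an inhibitor of mTORC1, and PLK2 fell by 1.05 (SE 0.14) and 1.36 (SE 0.15). The adjusted p-values of these genes went from 0.0114 to 0.0255 in the quasi-likelihood test of edgeR, Benjamini-Hochberg adjusted.

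In the Notch list of 23 tested genes 2 rose and 3 fell, against 4 and 3 by DESeq2 and 2 and 2 by limma-voom. The targets HES1, HEYL and NRARP fell by 1.04 (SE 0.15), 0.76 (SE 0.13) and 0.96 (SE 0.17), and the receptor-modifying glycosyltransferase LFNG and HES2 rose by 1.29 (SE 0.12) and 1.97 (SE 0.15). HES1 stood at 126, 141 and 161 CPM in DMSO and at 77.8, 60.6 and 69.4 CPM in E2. Its groups did not overlap, and the DMSO levels differed little between lines. Of 55 TGF-beta and BMP genes LEFTY1, an inhibitor of Nodal, fell by 2.34 (SE 0.32) and the BMP target ID1 by 0.95 (SE 0.12). These 2 made 3.64%, against 0.743% of all genes. In this list 0 rose by edgeR's test and limma-voom, with 2 higher by DESeq2 and 6 at an unadjusted p under 0.05. Of 40 WNT genes NKD2, which restrains the pathway, and TCF7 rose by 0.99 (SE 0.12) and 0.97 (SE 0.15). They made 5% of the list, against 1.72% of all genes. Of 23 immediate early genes EGR3 and EGR1 rose, EGR1 by 0.84 (SE 0.13), and JUNB fell by 0.90 (SE 0.13). The raised and lowered shares were 8.70% and 4.35%, against 1.72% and 0.743% of all genes. Adjusted p-values of the genes in this paragraph ran from 0.00375 to 0.0495 in the quasi-likelihood test of edgeR, Benjamini-Hochberg adjusted.

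PLIN4 stood at 1.93, 3.69 and 1.11 CPM in DMSO and at 26.9, 22.4 and 11 CPM in E2. PLIN4 and PLIN5, which coat lipid droplets and were named after their values were seen, rose by 3.22 (SE 0.26) and 3.55 (SE 0.22). G0S2 stood at 1.03, 0.751 and 2.96 CPM in DMSO and at 9.08, 12.4 and 58.4 CPM in E2. G0S2 inhibits the main droplet lipase and was highest in the parental line under both treatments; it rose by 3.87 (SE 0.25). In sphingolipid metabolism DEGS2 and the sphingosine-1-phosphate exporter SPNS2 rose among 21 tested genes (9.52%, against 1.72% of all genes), SPNS2 by 1.58 (SE 0.25). Of 22 tested ABC transporters ABCA3 rose by 1.28 (SE 0.13) and the cholesterol exporter ABCG1 fell by 1.96 (SE 0.30). Each made 4.55% of the list, against 1.72% raised and 0.743% lowered over all genes. For these genes the adjusted p ran from 0.00307 to 0.0391 in the quasi-likelihood test of edgeR, Benjamini-Hochberg adjusted.

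Of 60 nucleolar ribosome biogenesis genes 48 were higher in all 3 lines (80%, against 27.8% of all genes) and none was lower in all 3. Their median change was 0.31 in clone 1, 0.37 in clone 2 and 0.45 in the parental line, and with the GC and length correction 51 were higher in all 3. None of the 60 was called in the quasi-likelihood test of edgeR, Benjamini-Hochberg adjusted, with 39 at an unadjusted p under 0.05, 0 by limma-voom and 17 by DESeq2. The same test called 28 higher with the GC and length correction, 22 in the clones alone and 20 without clone 2, and none without clone 1. RRP12 and PPAN, with the largest changes, had 0.83 (SE 0.20) and 0.86 (SE 0.19). DEAD-box helicases were higher in all 3 lines in 20 of 35 cases and cytosolic chaperones in 15 of 28.

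Of 47 mitosis genes 29 were lower in all 3 lines (61.7%, against 25.2% of all genes) and 24 with the GC and length correction. Medians were -0.17, -0.12 and -0.37. No mitosis gene was called, with 8 lower at an unadjusted p under 0.05, 0 by limma-voom and 2 by DESeq2. The edgeR test called 2 lower with the GC and length correction, 2 in the clones alone and 0 without clone 1. Without clone 2 it called 12 lower and 1 higher, in a fit that called 1381 genes lower in all. All 10 tested S100 calcium-binding proteins were lower in all 3 lines, with a median change of -0.58, and 9 of the 10 with the GC and length correction. The S100 medians differed between lines, at -0.58 in clone 1, -0.30 in clone 2 and -1.03 in the parental line. None passed, with 8 at an unadjusted p under 0.05, 0 by limma-voom and 4 by DESeq2. The edgeR test called 5 lower with the GC and length correction, 5 in the clones alone, 9 without clone 2 and 0 without clone 1. Glutathione S-transferases were lower in all 3 lines in 8 of 12 cases, with medians of -0.56, -0.245 and -0.855. Lysosome and autophagy genes were lower in all 3 lines in 23 of 40 cases and genes of epithelial junctions in 25 of 48.

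**Figure D5:**
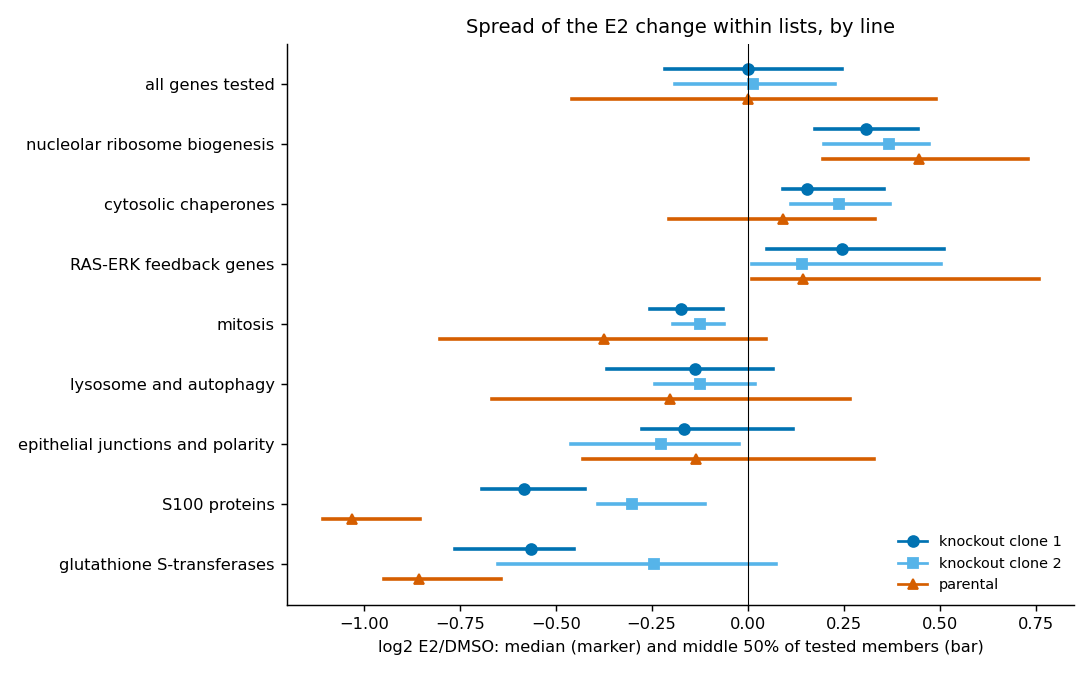
Markers give the median log2 E2/DMSO ratio of tested members in each line and bars the middle 50% of members. Nucleolar genes lie to the right of 0 in all 3 lines, S100 proteins and glutathione S-transferases to the left, and the parental line has the widest bars for all genes tested.

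Other large families gave no call in edgeR's quasi-likelihood test. None of 505 zinc finger ZNF genes was called, with 94 at an unadjusted p under 0.05, 0 by limma-voom and 21 by DESeq2. None of 52 DNA replication genes was called, with 9 at an unadjusted p under 0.05, 0 by limma-voom and 2 by DESeq2. None of 76 cytosolic ribosomal protein genes was called, with 8, 0 and 4 by the same measures, and of 33 proteasome genes none was called by any of these. Of the 1782 tested genes in any of the 63 lists, 63 rose and 39 fell, so that 205 raised and 77 lowered genes stood outside the lists.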

How the data were processed

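Gene-level counts were read from 6 poly(A)-selected libraries, made with a stranded kit per the labels' protocols. The counts are whole numbers per gene symbol as deposited by the authors, with no normalization. HISAT2, SAMtools, Subread, DESeq2 and hg19 are named in the submitters' processing notes without roles or versions. The annotation and the use of strand in counting are not given in the sources used here. In the column names DMOS was taken to mean DMSO and ER to mean E2. The deposited normalized table was not used.

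The analysis used edgeR 4.0.16 under R 4.3.3 (filterByExpr, TMM, quasi-likelihood test, treatment with line as a block, Benjamini-Hochberg adjustment over 15611 genes, threshold 0.05), which left 2 residual and 4.14 prior degrees of freedom. Standard errors are the log2 change over the square root of F, and ratios within a line used a prior count of 2. The scripts were tested on simulated data of 15611 genes. They recovered 78 of 100 genes changed 2-fold and 97 of 100 changed 4-fold, and made 21 false calls. The pairing comes from the line: the DMSO and E2 libraries of a line share its cells, and differences between lines in DMSO correlated with those in E2 at 0.626 for clone 1 and clone 2, 0.468 for clone 1 and parental and 0.471 for clone 2 and parental. Without the replicate block 176 genes were called, 141 higher and 35 lower.

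The gene lists, families and comparison were chosen with earlier results of these data known. Genes named were up to 4 called members per direction of a list with the largest change, up to 3 of a family, up to 2 members of a list with no call, the 15 largest increases and 10 largest decreases with a mean of at least 2 CPM, and ESR1, PGR, GREB1 and ETV4. The genes of neighbouring runs and pairs, SLC9A3R1, FGF19, PLIN4, PLIN5, MLPH, AKR1C1, AKR1C3 and CSNK1D were named after their values were seen. Some genes that this rule names are not reported here, and counts include them. Gene order and promoters came from RefSeq tables (GRCh38.p14), and 15263 tested genes were placed and 11979 had a promoter, of which the first listed start was used. GC content was available for 93.57% of tested genes. Alternatives were other scalings, filters, thresholds and prior counts, limma-voom (limma 3.58.1), DESeq2 1.42.0, each line left out, and the GC and length correction.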

Additional observations from a re-analysis of the deposited data

How the results depend on the processing

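No called gene changed sign under any alternative run that tested it, and all runs used the same libraries or a part of them. With at least 10 counts in every library 228 of the 268 raised and 113 of the 116 lowered genes were tested. Without the parental line 265 of the 268 raised genes were tested. Without the replicate block, so without the pairing by line, 141 genes were higher and 35 lower. No filter on low counts gave 627 and 312, DESeq2 969 and 434, and the GC and length correction 881 and 657. Leaving out 1 line gave 568 to 1972 higher and 177 to 1381 lower; these fits kept 1 residual degree of freedom and an infinite prior, meaning 1 common spread for all genes. At a fit of at least 2-fold 66 lowered genes remained called. DESeq2 kept 267 of the 268 raised calls and all 116 lowered calls, limma-voom 243 and 104, and the fits without clone 1 kept 237 and 86. Of the called genes named, 85 of 187 no longer passed without the block. ETV4 changed by 0.20 over the 3 lines and by -0.028 without the parental line to 0.36 without clone 1.

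Genes at least 1.5-fold changed in all 3 lines (681 and 289) became 238 and 59 at 2-fold and 1392 and 884 at the lower fold tried. Over pairs of lines they numbered 775 to 1194 higher and 459 to 612 lower. The share of raised genes beside another raised gene, 30%, against 2.74% of genes not raised, was 23.2% (2.02%) with at least 10 counts in every library. It was 29.2% (6.56%) with no filter, 30.6% (10.3%) in DESeq2 and 25.1% (9.68%) with the GC and length correction. Leaving out clone 1, clone 2 and the parental line gave 26.7% (5.99%), 38.6% (20.4%) and 33% (13.5%). In all these settings but the one with at least 10 counts, the contrast with genes not raised, taken as a ratio, was smaller. For lowered genes the share was 1.72% (1.51% of genes not lowered). It was 0% without the block, at 2-fold and with overlapping genes left out. It was 12.7% (3.78%) with no filter, 14.1% (5.24%) in DESeq2 and 16.1% (7.91%) with the GC and length correction. With 1 line left out it was 5.81% to 23.8% (2.19% to 16.3%). The cause of these moves was not tested. Changes of genes with a few counts in DMSO are limited by depth.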

Other observations

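Genes not yet described gave some of the largest decreases. ADGRF1 stood at 51.6, 33.5 and 100 CPM in DMSO and at 16.8, 8.34 and 30.7 CPM in E2. ADGRF1, an adhesion G protein-coupled receptor, fell by 1.77 (SE 0.13) without overlap between groups. LMO3, a LIM-only transcriptional cofactor, fell by 2.17 (SE 0.24) and FAM107A by 1.83 (SE 0.20). HNRNPA1L2 fell by 2.13 (SE 0.33), and as a near-copy of HNRNPA1 its counts are uncertain. Adjusted p-values of these 4 genes ran from 0.00375 to 0.0362 in the quasi-likelihood test of edgeR, Benjamini-Hochberg adjusted.

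Other raised genes had varied roles. GAS6 stood at 42.9, 54.7 and 24.9 CPM in DMSO and at 106, 146 and 82.9 CPM in E2. GAS6, a ligand of the TAM receptor tyrosine kinases, rose by 1.48 (SE 0.13), with its antisense gene GAS6-AS2 at 1.55 (SE 0.22). MIR17HG, the host of the miR-17-92 microRNA cluster, rose by 1.52 (SE 0.24) and the snoRNA host SNHG12 by 0.98 (SE 0.13). The G protein regulator RGS10 rose by 1.67 (SE 0.12) and RBM24, an RNA-binding protein, by 4.61 (SE 0.34). In the circadian clock list BHLHE41 rose by 1.27 (SE 0.21) and DBP fell by 1.01 (SE 0.17). Adjusted p-values ran from 0.00385 to 0.0422 in the quasi-likelihood test of edgeR, Benjamini-Hochberg adjusted.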
